A study of Drosophila melanogaster with 76 samples.

Results

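The 494 broad Zelda domains described here are the widest stretches of chromatin that the transcription factor Zelda occupied in wild-type Drosophila melanogaster embryos labelled 1–1.5 h. They were chosen by the merged length of peaks in the 2 wild-type Zelda lists of that stage: overlapping peaks were merged, regions found in both lists were kept, and those of at least 4000 bp were called domains. This gave 494 of 8981 regions (5.5%), which held 3.17 of 13.0 Mb (24.3%) of the region length. The other 8487 regions, called narrower regions below, had a median length of 911 bp. The domains had a median length of 5340.5 bp and reached 37370 bp. The members just inside the limit measured 4000, 4001 and 4002 bp, and the regions just outside it 3993, 3988 and 3971 bp. In 227 domains each list held 1 unbroken peak, and in 285 the longest peak of each list was itself at least 4000 bp.

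Zelda is a zinc-finger protein supplied by the mother that binds short sequence tags near early embryonic genes, opens the chromatin there and prepares these genes for the first transcription of the zygotic genome. GAF, the GAGA factor encoded by Trl, opens chromatin at GA-rich sites and acts alongside or after Zelda. IntS11 is the RNA-cutting subunit of Integrator, a complex that travels with RNA polymerase II, processes small nuclear RNAs and ends many short transcripts near promoters.

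The study mapped these proteins by ChIP-seq in embryos labelled Mutant or WT, called mutant and wild type here. The labels do not say which gene is mutated. The mutant groups are labelled Mutant IntS11 mislocalized and were sampled at 1–1.5 h and 2.5–3 h with antibodies against Zelda, GAF, RNA polymerase II (Pol II) and Pol II phosphorylated on serine 5 (pSer5), a form found early in the transcription cycle. Their reference is labelled WT with the same words IntS11 mislocalized and was sampled at the same stages with the same antibodies. Further groups are Pol II in zygotic-mutant and in wild-type larvae labelled 48AEL, and IntS11 itself in wild-type embryos of both stages, whose label lacks the word mislocalized. The alleles, promoters and strains behind these labels are not given in the sources used here. Each group had 2 peak lists, 40 lists of 76 samples in all, and the other 36 samples were not analysed here. The lists give peak positions but neither heights nor reads, so depth was unknown and no interval for counting error is given. Lists held between 1276 and 12202 peaks. The labels do not say whether the 2 samples of a group came from separate collections, so p-values measure only the spread between these lists.

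Of the 494 domains, 96 held a gene of a patterning or regulatory list, among them the main pair-rule, gap and Notch target loci. The lists were chosen with earlier results known, and the same count was not made for the narrower regions. The domains overlapped 502 protein-coding genes, 3.6% of the 13935 in the gene table, and held an annotated end of 391 of them (2.81%). Of the 494 domains, 242 held an end of a coding gene and 252 did not. Of all domains, 144 lay inside a gene without touching its ends and 67 overlapped no annotated gene of any class. The 12 genes of the Enhancer of split and Notch target list shared 2 domains. All 12 were thus in a domain, as were all 4 of the Bearded locus, whose small proteins restrain Notch signalling. So were 8 of 9 pair-rule genes (eve, ftz, hry, odd, opa, prd, slp1 and slp2, which divide the embryo into segments), 5 of 7 trunk gap genes (Kr, hb, hkb, kni and knrl, which set out its broad regions) and 6 of 8 pioneer factor genes, among them zld and Trl, the genes of Zelda and GAF. Among the earliest zygotic genes the count was 13 of 28, among Hox genes 6 of 11, among proneural and neuroblast genes 11 of 18 and among Polycomb and Trithorax group genes, which keep patterning genes off or on, 6 of 16. It was 6 of 10 among segment polarity genes, 6 of 11 among gut and posterior genes, 6 of 13 among sex determination and dosage genes and 7 of 16 among dorsal ectoderm genes. Other lists were less represented, with 4 of 12 neurogenic ectoderm, 3 of 9 head gap, 3 of 11 mesoderm, 2 of 7 cell death, 2 of 11 cell cycle, 2 of 19 microRNA and 1 of 10 cellularization genes. No gene of the muscle (10 genes), proteasome (31) or insulator (11) lists was in a domain, and 1 of 11 glycolysis and 1 of 92 cytoplasmic ribosomal protein genes were.

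Several of the longest domains reached far beyond the genes named for them. The longest, at 3R:26005640-26043009 on build dm6, spanned 37370 bp of the Enhancer of split complex from E(spl)mbeta-HLH to gro, the gene of the corepressor Groucho. The next, at 2L:14428160-14451757 (23598 bp), overlapped only CG15283 and lncRNA genes, and its nearest coding genes on either side are Cpr35B and, 39102 bp away, noc. The domain at 3R:6803258-6824529 (21272 bp) held mir-10, both 7SL RNA genes, which encode the RNA of the signal recognition particle, 4 tRNA-Lys genes and part of the Hox gene Scr. Kr began inside one edge of the domain at 2R:25207555-25227633 (20079 bp), and ftz, with 1921 bp, lay in the middle of one at 3R:6858656-6874489 (15834 bp). Neighbouring domains often belonged to 1 locus. Joined across gaps of up to 20 kb, the 494 domains formed 323 clusters, and the largest of these held 8 domains.

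Of the domains, 8 are called 5S rRNA and chromosome-end domains below. On 2R, 3 covered the tandem 5S rRNA genes between 19729400 and 19759437, and 5 lay within 30 kb of the start of a chromosome arm or of the last peak on it. The longest of the 5 was at 3L:165-20155 (19991 bp), and one, at 2L:26037-30613, lay inside the coding gene Cda5. How well reads can be placed in the 8 was not tested. They made up 1.69% of the domain length but held much of what remained in some mutant lists, so the main shares and tests are also given without them.

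Most of the domain length had no Zelda peak in mutant embryos at 1–1.5 h. Mutant peaks covered 8.63 and 8.07% of the domain length in replicates 1 and 2, against 97.2 and 92.2% in wild type. Without the 5S rRNA and chromosome-end domains these were 7.54 and 7.05% in the mutant and 97.2 and 92.1% in wild type. The wild-type lists of this comparison chose the domains, so these values are a description with no test. Of the 494 domains, 244 (49.4%) had no peak in either mutant list, 60 had a peak in 1 list, and 190 (38.5%) had a peak in both. Over all 8981 early regions the shares were 91.4% with no mutant peak and 5.12% with a peak in both lists. Where Zelda remained, it remained as short pieces, with median lengths of 569.5 and 576 bp over all mutant peaks in domains. Together the pieces of a domain covered a median of 899 and 814.5 bp in the 190 domains, or 13.5 and 11.9% of the domain. In 55 domains (11.1%, against 0.779% of all early regions) both mutant lists held at least 2 separate peaks. The pieces lay toward the middle of the domains. With each domain cut into 20 equal steps, coverage in the middle 4 steps was 3.1 and 2.9 times that in the outermost 4 in the mutant lists and 1.08 and 1.15 times in the wild-type lists. Without the 5S rRNA and chromosome-end domains these ratios were 3.34 and 3.17 in the mutant and 1.08 and 1.15 in wild type. The early wild-type Zelda lists set the domain edges, so their ratios near 1 follow from the rule. Wild-type lists that the rule did not use also favoured the middle over all domains. Their ratios were 1.25 and 1.23 for late Zelda, 1.68 and 1.71 for early GAF and 1.55 and 1.58 for early Pol II. Of the length under early Zelda peaks, 11.1 to 12.5% lay within 500 bp of a coding gene's end in the 4 lists, beside 12.2% of the domain length. Without the 5S rRNA and chromosome-end domains it was 13.9 and 13.0% in the mutant and 12.5 and 12.8% in wild type.

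At the Enhancer of split domain, mutant Zelda peaks covered 5050 and 4844 bp as 7 pieces in each list, against 37092 and 37308 bp as 2 peaks and 1 peak in wild type. At ftz 3 pieces of 2062 and 1987 bp in total remained in the mutant, against 15196 and 15033 bp in wild type. At Kr a single peak of 718 and 617 bp remained in the mutant, against 19890 and 19289 bp in wild type. Of the pieces of the first mutant list, 6 of 7 at the Enhancer of split and 3 of 3 at ftz overlapped a piece of the second, as the maps of Zelda peaks show. The domain at neur, which encodes a ligase needed for Notch signalling, and hyx at 3R:9023507-9040145 had no mutant peak, against 16562 and 15657 bp in wild type. Likewise empty in the mutant was the domain of Su(z)2, a Polycomb group gene, where wild-type peaks covered 13735 and 11218 bp.

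**Figure D1:**
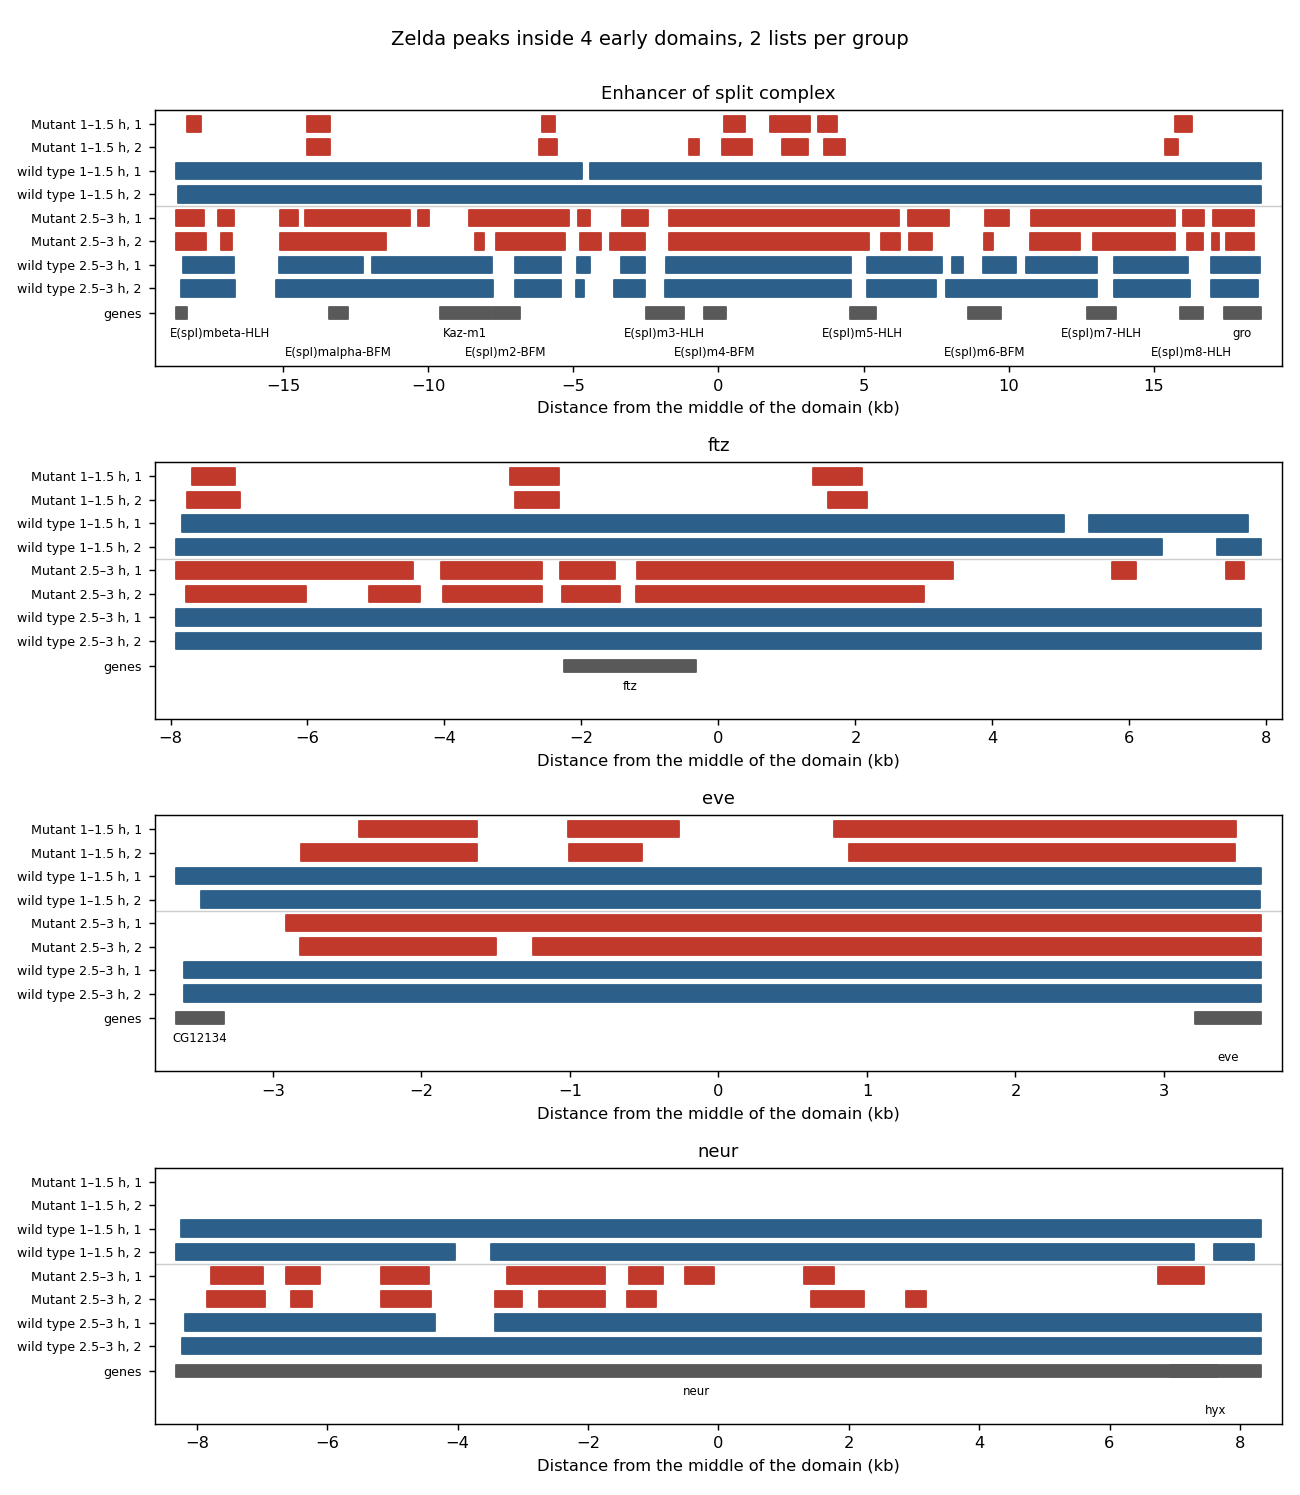
Zelda peaks in the domains of the Enhancer of split complex, ftz, eve and neur, with distance from the middle of the domain in kb on the horizontal axis and 1 row per list (red, mutant; blue, wild type) above the annotated coding genes. At the Enhancer of split complex the mutant lists hold 7 and 7 peaks early and 14 and 16 late, and at neur none early and 8 in each list late.

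A few domains kept much of their Zelda. The largest mutant share outside the 5S rRNA and chromosome-end domains was at RhoGEF64C, CG15876 and CG13713 (3L:4693810-4698003), where the mutant lists held 3666 and 3929 bp and the wild-type lists 4004 and 3919 bp. It was the only domain of the 494 in which the 2 mutant lists were not both below the 2 wild-type lists. The same count was not made over all early regions, of which 91.4% had no mutant peak. At eve the mutant kept 4246 and 4278 bp, against 7304 and 7132 bp in wild type, and the longest of its 3 pieces reached into eve. At amos, a proneural gene, the mutant kept 2348 and 2582 bp of a 4116 bp domain, and at cad and dia 2094 and 2263 bp of a 4383 bp domain, both of which were covered almost fully in wild type (4116 and 3882 bp, and 4383 and 4197 bp). At upd1, which encodes a JAK-STAT ligand that takes part in counting X chromosomes for sex determination, 2529 and 2755 bp remained in the mutant, against 4900 and 5170 bp in wild type.

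The domains of pair-rule and sex determination genes kept a mutant Zelda peak more often than those of segment polarity or Polycomb genes. Peaks in both mutant lists were found at 10 of 11 pair-rule domains, 6 of 6 domains of sex determination and dosage genes (Sxl, sc, upd1, dpn, emc and gro), 3 of 3 Bearded locus domains and 11 of 14 domains of the earliest zygotic genes, beside 190 of 494 over all domains. They were found at 2 of 8 domains of segment polarity genes, which act after the pair-rule genes, at 3 of 8 of gut and posterior patterning genes, and at 0 of 8 of Polycomb and Trithorax group genes. At ph-d and ph-p the mutant lists held none of a 5037 bp domain, against 4812 and 5037 bp in wild type. The lists share genes, were chosen with earlier results known and differ in domain length, so no test was made of them.

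**Figure D2:**
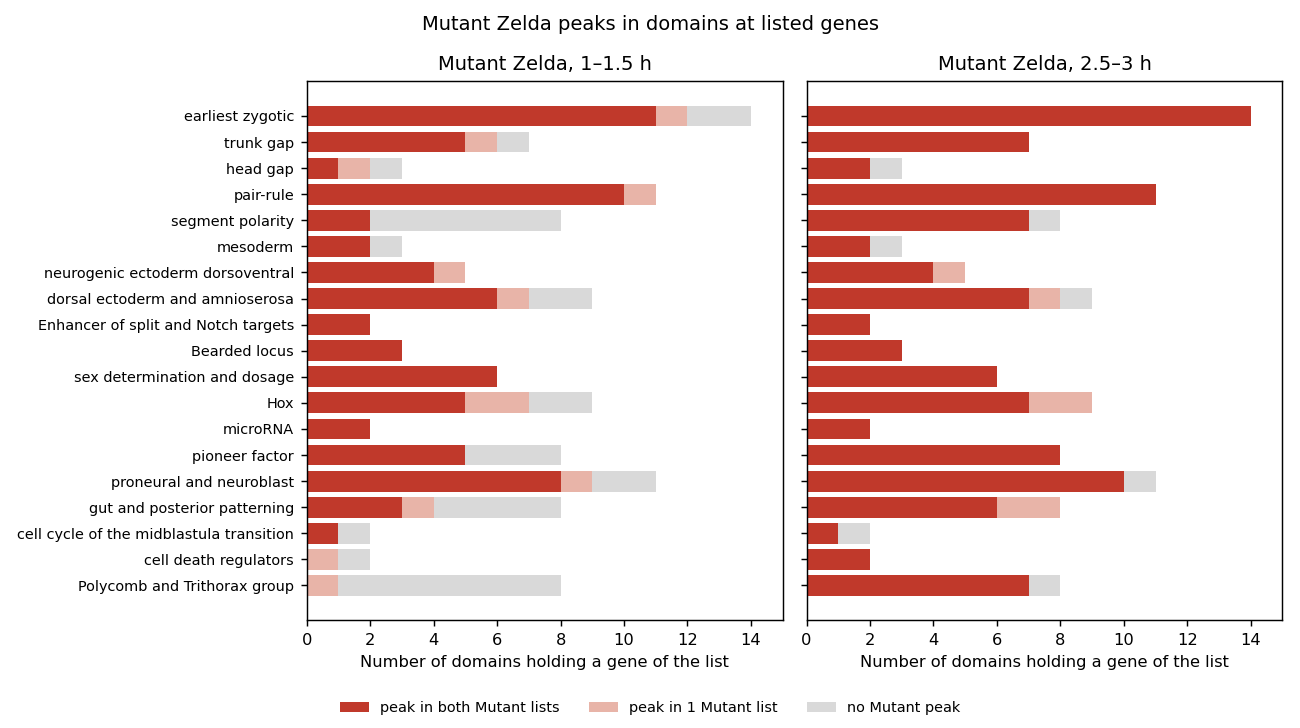
Number of domains that hold a gene of each list (horizontal axis; lists with at least 2 domains), split by whether both, 1 or neither mutant list has a Zelda peak in the domain, at 1–1.5 h (left) and 2.5–3 h (right). At 1–1.5 h 10 of 11 pair-rule domains and 0 of 8 Polycomb and Trithorax group domains have a peak in both mutant lists; at 2.5–3 h the counts are 11 of 11 and 7 of 8.

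By 2.5–3 h mutant embryos had Zelda peaks in most domains, in more pieces than at 1–1.5 h. Mutant peaks covered 37.4 and 29.6% of the domain length, against 81.0 and 84.2% in wild type. All 494 domains held late Zelda in both wild-type lists, beside 74.1% of all early regions. Of the 494 domains, 352 (71.3%) had a peak in both mutant lists and 84 (17.0%) in neither. Of the 6657 early regions that wild type still held at this stage, 16.1% had a peak in both mutant lists and 74.8% in neither. The mutant peaks covered a median of 2682.5 and 1866 bp in the 352 domains, or 44.2 and 31.8% of the domain. In 220 domains (44.5%, against 5.12% of those regions) both mutant lists held at least 2 peaks. Breaks were as common in wild type at this stage, since 290 and 242 domains held at least 2 peaks in the mutant lists and 289 and 252 in the wild-type lists. The pieces differed in size between genotypes, with median peaks of 603 and 568 bp in the mutant and 1915.5 and 2399 bp in wild type. The mutant lists held 1049 and 919 such peaks, against 344 and 332 at 1–1.5 h, whose median lengths of 569.5 and 576 bp overlapped those of the later stage. The shortest late Zelda peak anywhere measured 235 bp in both mutant lists and 259 and 258 bp in the wild-type lists.

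The late mutant peaks included the early ones. Between 86.9 and 91.8% of the length under early mutant Zelda peaks in the domains was also under a late mutant peak, while the early peaks accounted for 19.6 to 25.4% of the late length. Of the 190 domains with an early peak in both mutant lists, 184 had a late peak in both. Of the 244 with no early peak, 122 had a late peak in both lists, 47 in 1 list and 75 in neither. At neur, empty early, 8 peaks of 5684 and 4926 bp in total were present in the late mutant lists, against 15595 and 16550 bp in wild type. At alphaTub84B, also empty early, the late mutant lists held 3623 and 3692 bp and the wild-type lists 3717 and 3957 bp of a 4102 bp domain. At lola, a zinc-finger gene of the pioneer factor list, the mutant had no early peak and held 8377 and 6595 bp late, against 8503 and 9075 bp in wild type.

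Several domains held as much Zelda in late mutant embryos as in wild type. In 477 of the 494 domains both mutant lists were below both wild-type lists, and in the other 17 the lists overlapped or tied, or both mutant lists were the higher. The same count was not made over all early regions. Of those that wild type still held at this stage, 74.8% had no mutant peak. At Ten-m, which encodes a transmembrane protein of the teneurin family, late peaks covered 5617 and 5571 bp in the mutant and 5467 and 5531 bp in wild type. At hkb, a gap gene of the terminal regions, they covered 5078 and 4153 bp in the mutant and the whole 5078 bp in both wild-type lists. At the cluster of CG16812, CG15480, CG16813 and CG16815 they covered all 8279 bp in both mutant lists and 8075 and 8163 bp in wild type. At the longest Enhancer of split domain the mutant lists held 28198 and 24608 bp and the wild-type lists 28783 and 30522 bp, close but without overlap, in 14 and 16 mutant and 13 and 10 wild-type peaks. At Kr the mutant held 4521 and 4992 bp, against 19255 and 19808 bp in wild type, so the groups stayed far apart there.

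Another 75 domains had no mutant Zelda peak at either stage. The longest lay at 2L:14511392-14522261 (10870 bp) over 3 tRNA-Gly genes and part of an lncRNA gene, where wild-type peaks covered 10405 and 9424 bp at 1–1.5 h and 2573 and 2764 bp at 2.5–3 h. At CG3473 (2L:14555852-14563040) wild type held 7189 and 6977 bp early and 2410 and 3053 bp late. In these 2 domains late wild-type coverage was also below 0.5 of the early one, and CG3473 had no GAF, Pol II or pSer5 peak in any embryo list. At Tis11, which encodes an RNA-decay protein, wild type held 6707 and 6178 bp early and 3585 and 4258 bp late, and at shams and CG11920 it held 7147 and 5905 bp early and 6501 and 6053 bp late. Genes of the fixed lists among the 75 were ems (head gap), gsb-n (segment polarity), dap (a cell cycle inhibitor), NetA (mesoderm) and ph-d. At 1 of their domains each, ph-p and tup were also among them.

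The share of a region that mutant Zelda covered was larger in longer regions. At 2.5–3 h it was 2.67 and 1.63% in regions under 500 bp, 8.56 and 5.97% at 1000 to 2000 bp, 30.7 and 23.2% in domains of 4000 to 6000 bp, and 51.3 and 44.1% in domains of at least 10000 bp. In wild type the share was 39.7 and 48.6% in the shortest class and 84.7 and 87.8% in the longest. At 1–1.5 h the mutant share was 1.3 and 1.07% in the shortest class and 13.4 and 12.6% in the longest. Without the domains over 5S rRNA genes and chromosome ends the longest class stood at 10.9 and 10.1% early and at 49.9 and 42.5% late. 

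**Figure D3:**
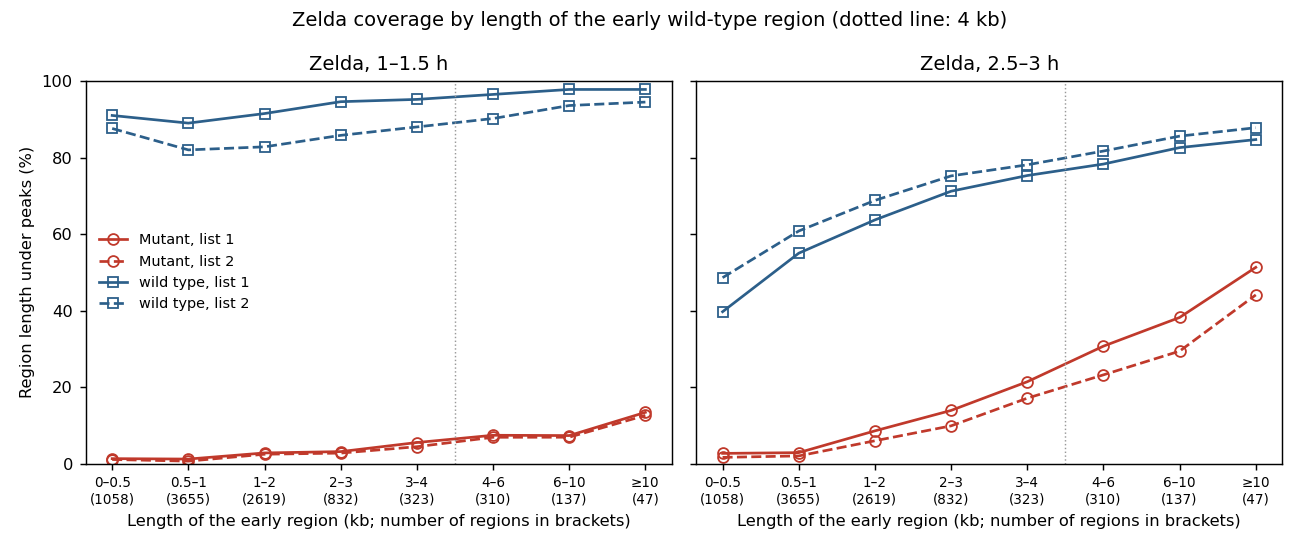
Share of early region length under Zelda peaks (vertical axis, %) by length class of the region in kb, for each mutant (red) and wild-type (blue) list at 1–1.5 h and 2.5–3 h; the dotted line marks the limit for domains. At 2.5–3 h the mutant lists stand at 2.67 and 1.63% in the shortest class and at 51.3 and 44.1% in the longest.

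In wild type the other antibodies had peaks in most domains. GAF peaks of both early wild-type lists were in 416 domains (84.2%), beside 41.2% of all early regions. For Pol II the count was 390 (78.9%), beside 51.2%, and for pSer5 397 (80.4%), beside 58.9%. At 2.5–3 h the counts were 435 for GAF (88.1%, beside 48.3%), 413 for Pol II (83.6%, beside 57%) and 431 for pSer5 (87.2%, beside 65.6%). Early GAF, Pol II and pSer5 were all present in 362 domains (73.3%), and none of them in 27 (5.47%). These 2 joint counts were not made over all early regions. A longer region has more room to meet a peak, and per base pair the domains were not richer in polymerase. Early Pol II covered 36.4 and 34.6% of the domain length and 42.3 and 39.5% of the narrower regions, and pSer5 covered 45.7 and 50.9% of the domains and 48.9 and 54.6% of the narrower regions. GAF covered 39.3 and 35.7% of the domains and 34.2 and 29.2% of the narrower regions.

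GAF, Pol II and pSer5 all covered less of the domains in mutant embryos. GAF covered 4.79 and 3.40% in the mutant and 39.3 and 35.7% in wild type at 1–1.5 h, and 16.8 and 22.3% in the mutant and 41.6 and 42.5% in wild type at 2.5–3 h. Pol II covered 4.95 and 3.98% in the mutant and 36.4 and 34.6% in wild type early, and 0.812 and 0.908% in the mutant and 45.0 and 42.0% in wild type late. For pSer5 the values were 1.76 and 1.63% in the mutant and 45.7 and 50.9% in wild type early, then 11.1 and 10.6% in the mutant and 54.7 and 54.9% in wild type late. Without the 5S rRNA and chromosome-end domains early GAF covered 3.54 and 2.13% in the mutant and 38.5 and 35.0% in wild type, and early Pol II 3.86 and 2.87% in the mutant and 35.6 and 33.7% in wild type. Late Pol II then covered 0.00151 and 0.114% in the mutant and 44.7 and 41.6% in wild type, and early pSer5 1.42 and 1.40% in the mutant and 45.7 and 50.6% in wild type. Late Zelda, late GAF and late pSer5 moved by less than 1 percentage point in each list. In each of the 7 antibody and stage pairs other than early Zelda both mutant lists lay below both wild-type lists. The mean log2 ratio of covered share over the 7 pairs was −3.02, an 8.13-fold lower share in the mutant (genotype permuted within each antibody and stage, two-sided exact permutation p = 7.14e-06, the smallest that 7 pairs allow). It was −1.87 for late Zelda and both GAF pairs (exact permutation p = 0.00926, the smallest possible) and −3.89 for Pol II and pSer5 (exact permutation p = 0.00154, the smallest possible). Without the domains over 5S rRNA genes and chromosome ends the ratios were −3.59, −2.06 and −4.74, with the same p-values. The 0.1 percentage points added before taking logarithms set much of the late Pol II ratio there. A single pair, 2 lists against 2, cannot go below an exact permutation p of 0.33. Permuting within each pair treats the pairs as independent. The labels do not say whether antibodies of a genotype and stage shared chromatin, and the input labels name no antibody. With shared chromatin the p-values over several pairs would be too small. The regions were chosen where wild type was bound, so sites bound only in the mutant lie outside them. Choosing domains by wide wild-type Zelda also favours a lower mutant share, most directly for late Zelda. All 494 held late Zelda in both wild-type lists, beside 74.1% of all early regions. The tests cannot separate this part from a genotype difference.

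**Figure D4:**
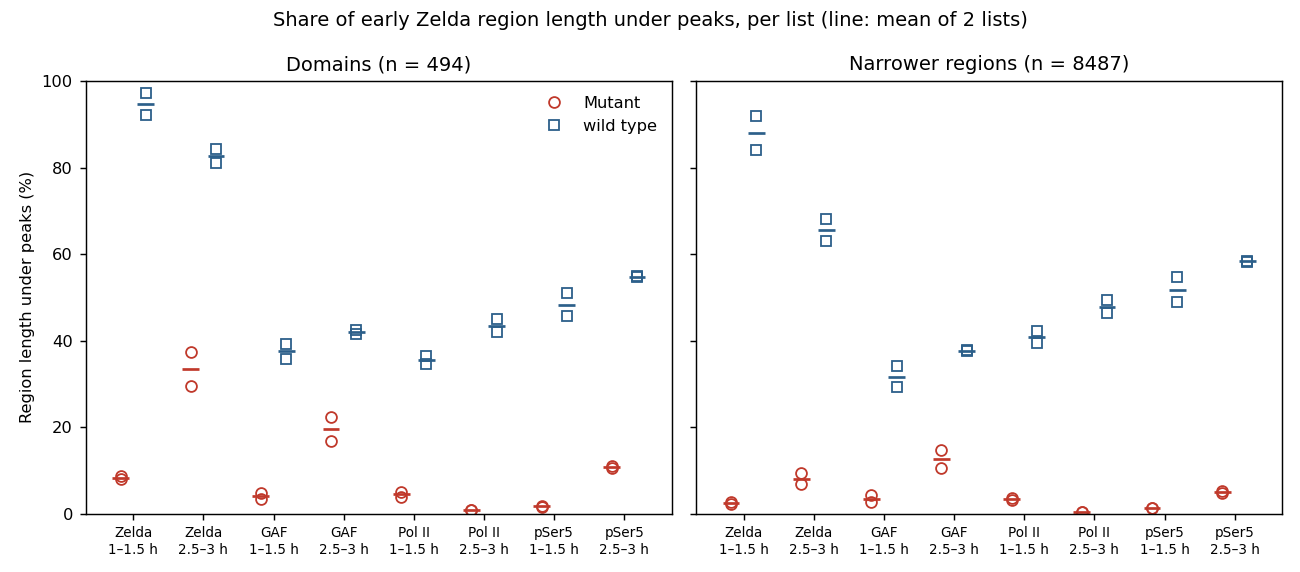
Share of region length under peaks (vertical axis, %) for each mutant (red circles, left) and wild-type (blue squares, right) list by antibody and stage, in the 494 domains and in the 8487 narrower regions; lines are means of 2 lists. In the domains both mutant lists lie below both wild-type lists for each antibody and stage.

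Most mutant lists held fewer peaks than their wild-type lists over the genome as a whole. Zelda lists held 2960 and 2584 peaks in the mutant and 11681 and 11003 in wild type early, and 4509 and 3478 in the mutant and 10419 and 11362 in wild type late. GAF lists held 5336 and 4045 in the mutant and 6543 and 5949 in wild type early, and 3599 and 5532 in the mutant and 9062 and 8085 in wild type late. Late Pol II lists held 4497 and 5898 in the mutant and 9474 and 9071 in wild type, and late pSer5 lists 9446 and 9055 in the mutant and 9603 and 9384 in wild type. The mutant lists were the longer ones for early Pol II, with 8821 and 8210 peaks against 7721 and 7096 in wild type, and for early pSer5, with 11448 and 12202 against 8340 and 9500 in wild type. For early pSer5 the domains took up 0.635 and 0.57% of the mutant peak length and 12.4 and 11.2% of the wild-type length. For late Pol II these shares were 0.824 and 0.723% in the mutant and 12.6 and 13.1% in wild type. Late Zelda had the opposite order, with 35.1 and 36.8% of the mutant peak length inside the domains and 23.6 and 22.2% of the wild-type length.

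Relative to wild type, the mutant share averaged over antibodies was higher in domains than in narrower regions, but this did not pass without the 8 5S rRNA and chromosome-end domains. The log2 ratio was higher in domains than in narrower regions by 0.78 over the 7 pairs (exact permutation p = 2.86e-05), by 0.73 for late Zelda and GAF (p = 0.037) and by 0.81 for Pol II and pSer5 (p = 0.00154). Without those 8 domains and the narrower regions of the same kind the differences were 0.25 (exact permutation p = 0.265), 0.56 (p = 0.204) and 0.02 (p = 0.965). The antibodies differed in this. For late Zelda the difference was 1.72 with them and 1.71 without them, where its log2 ratio with them was −1.31 in the domains and −3.03 in the narrower regions (exact permutation p = 0.33, the smallest possible for a pair). For late pSer5 the difference was 1.19 with them and 1.11 without them. For early GAF it was −0.01 with them and −0.47 without them, and for late GAF 0.47 and 0.44. For early Pol II it was 0.57 with them and 0.23 without them, and for early pSer5 0.47 and 0.29. For late Pol II it was 1.02 with them and −1.53 without them, where mutant coverage lay near or below the 0.1 percentage points added.

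Pol II peaks were nearly absent from the domains in the late mutant lists. The pSer5 antibody, against a form of Pol II, had late peaks in both mutant lists at 209 of the 494 domains (42.3%). A missing Pol II peak therefore need not mean missing polymerase, and why the 2 antibodies differed was not tested. Of 413 domains with Pol II in both wild-type lists, 402 (97.3%) had none in either mutant list and 6 kept it in both, beside 98.4% and 1.09% of all early regions with wild-type Pol II. Of the 6, 5 were 5S rRNA and chromosome-end domains, and the sixth was the Enhancer of split domain, where 47 and 1665 bp remained in the mutant, against 25128 and 25600 bp in wild type. The 8 5S rRNA and chromosome-end domains held 99.8 and 87.6% of the late mutant Pol II length. At the end of 2L (2L:216-5087) late Pol II covered 4574 and 4633 bp in the mutant and 4607 and 4612 bp in wild type. At the 5S rRNA genes of 2R:19742571-19746696 it covered 2933 and 3176 bp in the mutant and 1215 and 1147 bp in wild type. The 5S genes are transcribed by RNA polymerase III, and the sources used here do not say what else the antibody binds.

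Early Pol II remained at more domains. Of 390 domains with Pol II in both early wild-type lists, 87 (22.3%) kept it in both mutant lists and 257 (65.9%) had none, beside 12.7% and 81.7% of all such early regions. These counts favour longer regions, which have more room to meet a peak. Without regions at 5S rRNA genes and chromosome ends, early mutant Pol II covered 3.86 and 2.87% of the domains. It covered 3.58 and 3.14% of the narrower regions. The Enhancer of split complex stood out in length. Its longest domain held 17955 and 16350 bp of early Pol II in the mutant and 27559 and 26980 bp in wild type, and the adjoining domain of E(spl)mdelta-HLH and E(spl)mgamma-HLH held 6775 and 6108 bp in the mutant and 7353 and 7233 bp in wild type. The domain at 2L:19809652-19813651, over the genes of the U2, U4 and U5 small nuclear RNAs of the 38AB cluster and part of sick, was covered over its whole 4000 bp in both mutant lists and over 4000 and 3588 bp in wild type. Its early pSer5 was absent in the mutant, against 3589 and 4000 bp in wild type. At Df31 and Ac3 the mutant held 4295 and 4249 bp, against 4964 and 5528 bp in wild type. What remained lay at gene ends more often, with 36.9 and 38.9% of the mutant Pol II length in the domains within 500 bp of a coding gene's end, against 24.8 and 25.4% in wild type. Without the 5S rRNA and chromosome-end domains these shares were 48.1 and 54.9% in the mutant and 25.8 and 26.5% in wild type. At 2.5–3 h these same 4 domains held between 0 and 1665 bp of mutant Pol II.

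In the mutant, the serine 5 form was found at more domains late than early. Of 397 domains with early pSer5 in wild type, 309 (77.8%) had none in the mutant and 51 (12.8%) kept it, beside 90.3% and 4.92% of all such early regions. Of 431 domains with late pSer5 in wild type, 206 (47.8%) had it in both mutant lists and 196 (45.5%) in neither, beside 17.4% and 75.5%. At least 2 late pSer5 peaks in both mutant lists were found in 104 of them, beside 3.75% of all such regions. These counts favour longer regions. Without regions at 5S rRNA genes and chromosome ends, early mutant pSer5 covered 1.42 and 1.40% of the domains and 1.20 and 1.26% of the narrower regions. Late mutant pSer5 covered 10.4 and 9.99% of the domains and 5.14 and 4.83% of the narrower regions. At Lac, which encodes a cell adhesion protein, late pSer5 covered 4078 and 4116 bp in the mutant and the whole 4629 bp in wild type. At alphaTub84B it covered 3188 and 3494 bp in the mutant and 4102 bp in both wild-type lists, and at the first of 2 domains of robo2, an axon guidance receptor gene, 5362 and 5188 bp in the mutant and 7669 bp in both wild-type lists. No late mutant Pol II peak was called in any of these 3, so the 2 antibodies differed there. At kis, a Trithorax group gene with 2 domains, late pSer5 covered the whole 6411 and 6129 bp in wild type and none in the mutant. The share of the late pSer5 length near coding gene ends was 17.2 and 17.1% in the mutant and 18.7% in both wild-type lists.

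In the mutant, GAF remained both at domains with Zelda and at domains without it. Of 416 domains with early GAF in wild type, 298 (71.6%) had none in the mutant and 91 (21.9%) kept it, beside 81.9% and 12.2% of all such early regions. Of 435 with late GAF in wild type, 172 (39.5%) had none and 231 (53.1%) kept it, beside 60.1% and 32.1%. Early mutant GAF was present in 15.8% of the 190 domains that kept early Zelda and in 19.3% of the 244 that had lost it. At Trl, GAF's own gene, early GAF covered 4990 and 3838 bp in the mutant and all 7921 bp in wild type, while early mutant Zelda was absent. At trx, a Trithorax group gene, late GAF covered 4479 and 4527 bp in the mutant and all 4527 bp in wild type. At skd, a Mediator subunit gene, it covered all 4080 bp in the 2 mutant and the 2 wild-type lists. At the first kis domain it covered 5179 and 6213 bp in the mutant and 6396 and 6371 bp in wild type, with no mutant pSer5 beside it. Late mutant GAF was in both lists and late Zelda in neither at 31 domains (6.28%), and the reverse held at 150 (30.4%). These joint counts were not made over all early regions. Of narrower regions with the late wild-type peaks, 11.7% kept Zelda and 29.8% kept GAF in both mutant lists. Of the 31, 13 lay on the X chromosome. They include both domains of the kinase gene Tlk, where late GAF covered 4424 and 4410 bp and 3736 and 4122 bp in the mutant and all of the 4711 and 4122 bp in wild type, with no mutant Zelda at either stage.

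Domains on the X chromosome held less late Zelda and more GAF in the mutant than those on the other large arms. Of the 494 domains, 39 lay on the X and 452 on 2L, 2R, 3L and 3R. Late mutant Zelda covered 13.9 and 10.1% of the X domains and 39.2 and 31.0% of those on the other 4 arms, while wild-type Zelda covered 82.8 and 85.2% on the X and 80.9 and 84.2% on the other arms. Late mutant GAF had the opposite order, 33.6 and 41.5% on the X and 15.6 and 21.0% on the other arms. Wild-type GAF also covered more on the X, with 64.8 and 65.3% there and 39.9 and 40.8% on the other arms. Late mutant pSer5 covered 3.22 and 3.04% on the X and 11.7 and 11.2% on the other arms, and wild-type pSer5 60.5 and 59.1% on the X and 54.3 and 54.6% on the other arms. Early mutant Zelda covered 5.40 and 5.51% of the domains on the X and 8.91 and 8.30% on the other arms, or 7.74 and 7.20% there without the 5S rRNA and chromosome-end domains. The narrower regions had the opposite order early, with 4.02 and 3.08% on the X and 2.53 and 2.10% on the other arms. They had the order of the domains late, with Zelda at 4.23 and 3.44% on the X and 10.1 and 7.32% on the other arms and GAF at 16.6 and 22.0% on the X and 9.93 and 13.8% on the other arms in the mutant. In the same narrower regions late wild-type GAF stood at 44.4 and 45.5% on the X and 36.3 and 36.7% on the other arms. Late wild-type Zelda stood at 59.5 and 64.1% on the X and 63.5 and 68.4% on the other arms. Each comparison sets the X against the other arms within the same lists, 2 per genotype. This split was chosen after seeing the data, so it is given without a test. X domains with early patterning genes and little late mutant Zelda were those of sc (435 and 712 bp in the mutant, 5470 and 5300 bp in wild type) and l(1)sc (825 and 636 bp in the mutant, 9822 and 9723 bp in wild type). At upd1, also on the X, the mutant held 3936 and 3440 bp and wild type 5230 and 5402 bp.

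Wild-type IntS11 was on a minority of the domains early and on most of them late. IntS11 peaks of both lists were in 163 domains (33.0%) at 1–1.5 h and in 417 (84.4%) at 2.5–3 h, beside 6.99% and 44.3% of all early regions. They covered 7.76 and 7.24% of the domain length early and 35.7 and 39.1% late. Of the narrower regions they covered 4.34 and 4.31% early and 32.1 and 35.6% late. Outside the 5S rRNA and chromosome-end domains, early IntS11 took its largest share at chic and eIF4A, genes of profilin and a translation initiation factor, where it covered 4738 and 5780 bp of a 7336 bp domain. It covered more base pairs, 8437 and 7198 of 14234, at CG13334, CG42807 and CG42808. It covered 2200 and 2019 bp of the 4000 bp over the small nuclear RNA genes beside sick, and 4843 and 4773 bp of the 9200 bp at Pgk, a glycolysis gene, and Bacc.

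Domains with early IntS11 in wild type were those where mutant embryos more often had peaks late. Late mutant Zelda was in both lists at 150 of the 163 (92.0%), against 202 of the other 331 (61.0%). For late GAF the counts were 117 (71.8%) and 114 (34.4%), and for late pSer5 130 (79.8%) and 79 (23.9%). Domains with early IntS11 were longer, with a median of 6461 bp against 5103 bp for the 253 with none in either list. Within domains of 4000 to 6000 bp late pSer5 was in 80.0% of the 70 with early IntS11 and 24.2% of the other 240, and late Zelda in 85.7 and 55.4%. Without the 5S rRNA and chromosome-end domains these shares were 78.5 and 24.3% for pSer5 and 84.6 and 55.2% for Zelda. Wild-type early GAF was in all 163 domains with early IntS11 and in 70.0% of the 253, and early Pol II in 99.4% and 59.7%. The part of these in the result was not tested. Of the 75 domains with no mutant Zelda at either stage, 6.67% had early IntS11. These are counts over domains of the same lists, with no spread between samples.

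**Figure D5:**
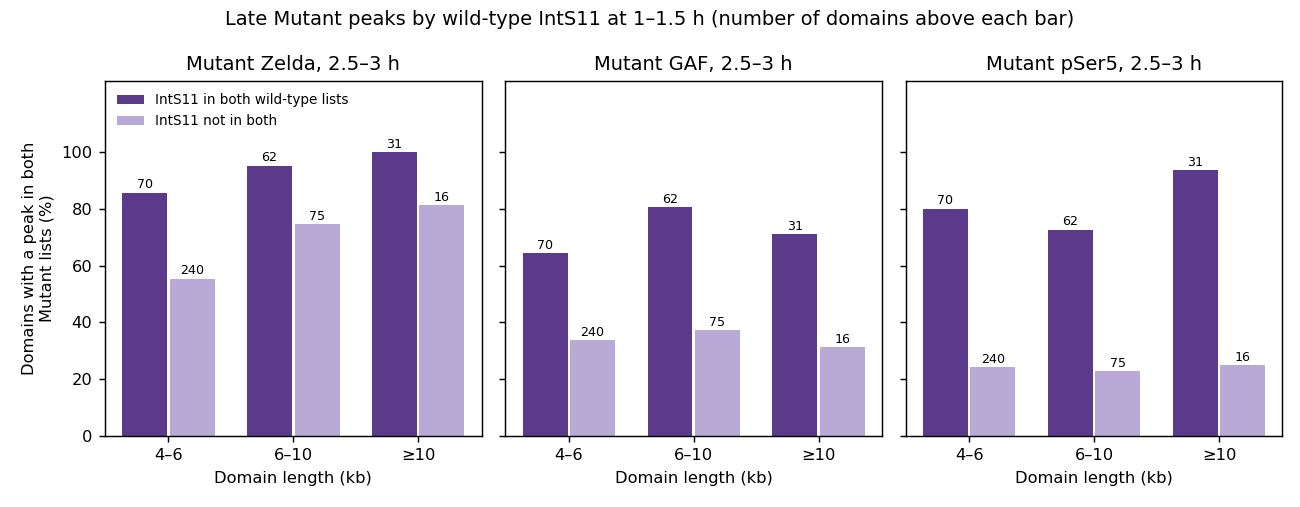
Percent of domains with a peak in both mutant lists at 2.5–3 h (vertical axis) for Zelda, GAF and pSer5, by domain length in kb, for domains with wild-type IntS11 in both lists at 1–1.5 h (dark) and the others (light); the number of domains stands above each bar. In the shortest class pSer5 is present in 80.0% of 70 and 24.2% of 240 domains.

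In larvae labelled 48AEL, Pol II at the domains did not separate the genotypes. It covered 9.18 and 10.3% of the domain length in the zygotic mutant and 11.4 and 8.84% in wild type, so the groups overlapped. Of 192 domains with larval Pol II in both wild-type lists, 171 (89.1%) had it in both zygotic-mutant lists and 6 (3.12%) in neither, beside 85.3% and 4.88% of all early regions with larval Pol II. The narrower regions were covered more, with 20.2 and 23.0% in the zygotic mutant and 24.7 and 18.5% in wild type. These larvae carry a label different from that of the mutant embryos, and the 2 comparisons share no samples.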

How the data were processed

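Peak lists of ChIP-seq samples were used as deposited, with the chromosome, start and end of each peak on build dm6 in 3 columns. Starts were read as counted from 0, which no header states, and are printed counted from 1. MACS2 2.2.7.1 is the peak caller among the tools of the submitters' processing notes, which also list deepTools 3.5.1, SAMtools 1.18, Bowtie2 2.2.5 and Trimmomatic 0.39; thresholds and control libraries are not given in the sources used here. The deposited values are positions only, so no depth or peak height could be used. Lists were called per sample.

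Peaks of the 2 early wild-type Zelda lists were merged with overlaps of at least 1 bp, and regions in both lists of at least 4000 bp were kept. Each list's share of region length under peaks was compared on the log2 scale with 0.1 percentage points added, by two-sided exact permutation of genotype within antibody and stage. Scripts were tested on simulated lists. Genes came from a RefSeq table of the Release 6 assembly with 17796 records, which has no strand, exons or sequence, so the planned promoter motif search was not run. Of 316 symbols in the gene lists, 312 matched. Genes named are those of the 10 domains highest in length or in coverage by each antibody in the mutant (IntS11 in wild type), of the longest domains with no mutant Zelda, and of the lists; others, given because the genotypes overlapped or the mutant was higher, were chosen after their values were seen. The members and lists were chosen with earlier results of these data known. Alternatives were other length limits, peak filters, left-out lists, a replicate block and the domains without those at 5S rRNA genes and chromosome ends. A peak in both lists was required for a domain to count as kept. Same-numbered lists of the 2 genotypes deviated together with correlations of −0.068 to 0.201, so numbers were not taken to pair samples.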

Additional observations from a re-analysis of the deposited data

How the results depend on the processing

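The lower covered share of the domains in the mutant kept its direction and stayed below 0.05 under every alternative run (log2 ratios −3.59 to −2.72 over the 7 pairs, −2.06 to −1.77 for late Zelda and GAF, −4.74 to −3.44 for Pol II and pSer5). Every alternative still chose its domains by wide wild-type Zelda, which favours a lower mutant share. The alternatives therefore cannot separate this part from a genotype difference either. The number of domains was 817 with a limit of 3000 bp, 184 with 6000 bp, 285 when each list's longest peak had to reach 4000 bp, and 327 to 494 with a list left out. Domains with no early mutant Zelda then numbered 481, 63 and 116, and 145 to 281 with a list left out. Those with early mutant Zelda in both lists numbered 93 with 6000 bp, 116 with peaks of at least 500 bp, and 139 to 227 with a list left out. Those with at least 2 peaks in both numbered 24 with peaks of at least 500 bp and 43 to 81 with a list left out, where leaving out a list loosens these rules by construction.

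The difference between domains and narrower regions for late Zelda and GAF no longer passed the exact permutation test with each list cut to its longest peaks at the size of the shortest list (0.43, p = 0.0926), with a mean of shares per region (0.83, p = 0.0556), with genotype permuted within replicate number as a replicate block (0.73, p = 0.0938), or with a list left out (0.69 to 0.77; p = 0.111 without mutant replicate 2 and 0.0741 without either wild-type replicate). It was chosen after seeing the data to leave out regions at 5S rRNA genes and chromosome ends, which gave 0.25 over the 7 pairs, 0.56 for late Zelda and GAF, 0.02 for Pol II and pSer5, and −1.53 for late Pol II alone. The difference for early GAF, near 0, became 0.21 with peaks of at least 500 bp, 0.09 without mutant replicate 1, 0.03 without wild-type replicate 2 and 0.16 against narrower regions of at least 2000 bp, and ran from −0.11 to 0.09 with a list left out. The replicate block changed no other call. Except where fewer regions or lists set a count, the cause was not tested. Lists without heights or reads limit what a missing peak means, since a weaker signal below the caller's threshold and no binding look the same.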

Other observations

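The domain of the stress-responsive noncoding gene lncRNA:Hsromega (3R:21294800-21303839, 9040 bp), which holds no coding gene, had no mutant Zelda peak at 1–1.5 h and 8763 and 6052 bp under mutant Zelda peaks at 2.5–3 h, against 9020 and 8758 bp in wild type at the later stage. Traf4, which encodes a signalling adaptor used in gastrulation, held 3 neighbouring domains that differed in the mutant. At the first (2L:4362471-4367376) late Zelda covered 4906 and 4596 bp in the mutant and 4856 and 4852 bp in wild type, with late pSer5 at 423 and 0 bp in the mutant and 1474 and 1926 bp in wild type. At the last (2L:4374250-4379031) late pSer5 covered 4397 and 4097 bp in the mutant and 4782 bp in both wild-type lists, and late Zelda 4486 and 1913 bp in the mutant and 2390 and 2573 bp in wild type.

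The gene zld itself lay in a domain of 5470 bp on the X at 19771553-19777022. Zelda covered 604 and 494 bp of it in the mutant and 5470 and 4842 bp in wild type at 1–1.5 h, and 1495 and 1224 bp in the mutant and 4777 and 5142 bp in wild type at 2.5–3 h.

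Few domains outside 5S rRNA genes and chromosome ends held more in both mutant lists than in both wild-type lists. At ttk (3R:31722403-31726895, 4493 bp), which encodes a zinc-finger repressor, late GAF covered 4018 and 4493 bp in the mutant and 2721 and 3180 bp in wild type. At ind, a homeobox gene of the neural ectoderm, with Sytbeta and Rpn12R (3L:15038680-15042964, 4285 bp), early Pol II covered 666 and 713 bp in the mutant and none in wild type. Late pSer5 there covered 1233 and 868 bp in the mutant and 747 and 782 bp in wild type. Of the 3 domains with more early pSer5 in the mutant, all lay over 5S rRNA genes. The one at 2R:19742571-19746696 held 3443 and 2901 bp in the mutant, against 0 and 1961 bp in wild type.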
